A study of Mus musculus with 4 samples.

Results

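The serine proteases of the kallikrein, Prss and type II transmembrane families, the Kunitz and Kazal inhibitors and the serpins were described in prostate tumors of TRAMP mice and in normal mouse prostate. The members were taken by gene name: names starting with Klk, Prss, Tmprss or Spink and a digit, names starting with Serpin, and Klkb1, Hpn, St14, Spint1 and Spint2, with Spink1 left out. This gave 161 of 24319 gene names in the tables, of which 85 are proteases and 76 are inhibitors or other serpins. RNA had been sequenced from 2 tumors and 2 normal prostates. The tumors came from F1 males of C57BL/6 TRAMP sires and FVB dams, heterozygous for a transgene in which the promoter of rat probasin drives the large T antigen of SV40. The labels put the tumors at 24 weeks and a late stage, within a protocol range of 24 to 28 weeks. The normal prostates came from wild-type F1 males of the same parent strains at 22 weeks. The probasin promoter is active in prostate epithelium, to which the transgene is thereby directed. Whether the 2 tumors came from separate mice is not spelled out in the labels. The p-values then cover only the spread among these 4 libraries, which may be technical.

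Serine proteases cut proteins with a catalytic serine, and most are made as inactive precursors that another protease activates. Kallikreins are secreted trypsin- or chymotrypsin-like enzymes encoded side by side in a large gene cluster, and in man several of them are abundant products of the prostate. Type II transmembrane proteases such as matriptase and TMPRSS2 act at the surface of epithelial cells, where the Kunitz inhibitors HAI-1 (Spint1) and HAI-2 (Spint2) hold them in check. Kazal inhibitors block trypsin-like enzymes in secretions, and serpins trap their target protease in a covalent complex, although some serpins have lost this activity and serve as chaperones, carriers or signals.

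Levels are FPKM, fragments scaled to transcript length and library size, divided by a factor per library that aligns the median gene. The deposited intervals imply 1431957 and 1141314 fragments in tumor 1 and tumor 2, and 985509 and 1578847 in normal 1 and normal 2. Of these the members held 1145 and 3595 in the tumors and 3371 and 7308 in the normal prostates, so that low members rest on few fragments. A value of 0 can be a failed estimate and is given as listed at 0. The prostate secretory marker Pbsn, probasin, lay at 0 and 14.2 scaled FPKM in the tumors, against 7022 and 6280 in the normal prostates. Msmb, a major seminal plasma protein, lay at 1.29 and 805 in the tumors, against 9621 and 8783 in the normal prostates. Tgm4, prostate transglutaminase, lay at 0.966 and 0.379 in the tumors, against 1780 and 1621 in the normal prostates. These 3 secretory markers were lower in both tumors than in either normal prostate. The 6 neuroendocrine markers were higher in both tumors, at a sum of 451 and 732, against 0.408 and 0.914 in the normal prostates. The 5 seminal vesicle markers were listed at 0 in all 4 libraries.

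Most members were not seen in this tissue. In all, 91 of the 161 were listed at 0 in all 4 libraries, 12 were above 0 in all 4, and 32 reached an FPKM of at least 1 in at least 2 libraries and were tested. Of all 24319 gene names, 17072 were above 0 in at least 1 library, 11469 were above 0 in all 4, and 13162 were tested. Tumor 1 had the fewest members with an FPKM of at least 1, at 13, against 41 in tumor 2 and 29 in each normal prostate. Over all genes these counts were 12236 in tumor 1 and 13863 in tumor 2, against 11090 and 10763 in the normal prostates. In tumor 1 the serpin Serpine2 made up 66.8% of the summed scaled FPKM of the members. In tumor 2 Spint2 made up 25.8% and Serpine2 12.1%. In normal prostate Spint2 and Spink5 together led, with Spint2 at 52.2% and 43.9% and Spink5 at 18.7% and 30.7%.

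**Figure D1:**
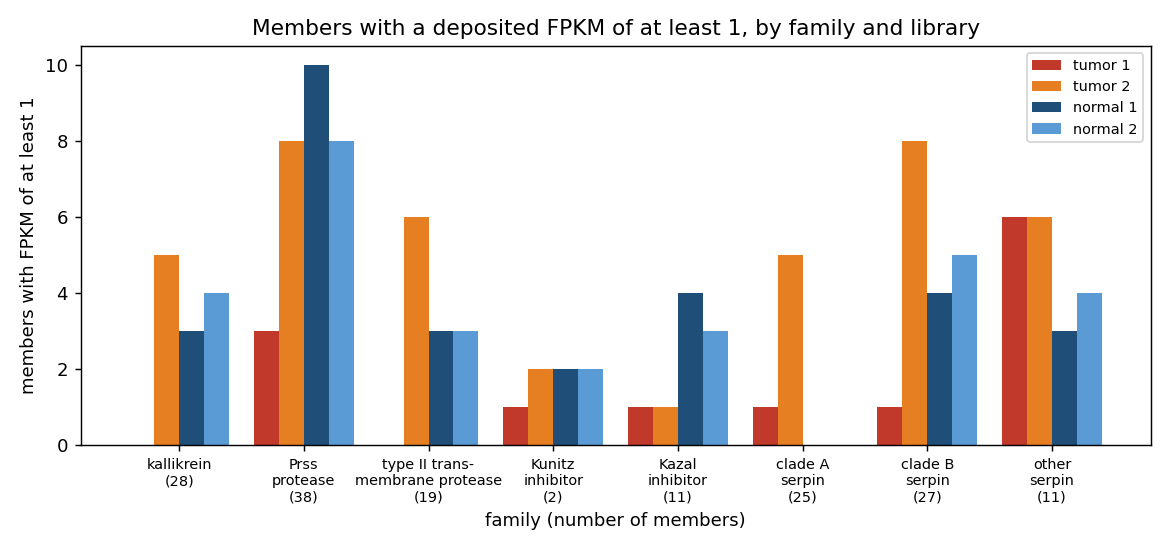
Number of members with a deposited FPKM of at least 1 (vertical axis) in each family (horizontal axis, with the family's size) for tumor 1, tumor 2, normal 1 and normal 2. Kallikreins reached 0, 5, 3 and 4 of 28 members in that order of libraries, and serpins outside clades A and B reached 6, 6, 3 and 4 of 11.

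Of the 32 members tested with limma, 2 rose, 5 fell and 25 did not pass a Benjamini-Hochberg adjusted p of 0.05. The share called was 21.9%, near the 18.1% called among all 13162 genes tested. The 2 rises, Serpine2 and Serpini1, were 6.25% of the members tested, against 9.85% of all genes. The 5 falls, Prss16, Prss27, Spink5, Spink8 and Spink14, were 15.6% of the members tested, against 8.27% of all genes. Of these 5, only Spink5 was above 0 in a tumor; Prss16, Prss27, Spink8 and Spink14 passed the filter through the normal prostates alone, so these counts give no support to a direction among the members. Serpini1 passed through the tumors alone. At an unadjusted p under 0.05 there were 15 of the 32 members, against 39.8% of all genes. Groups were fully apart in 65.6% of the members tested, 5 higher and 16 lower in the tumors, against 71.1% of all genes (37.7% higher and 33.3% lower). The median log2 fold change of the tested members was -1.17, against 0.07 over all genes tested. Of the 32, 3 passed the filter through the tumors alone and 4 through the normal prostates alone, so the counts among tested members are no account of all 161. Over all genes 1296 rose and 1088 fell, against 3681 and 427 with FPKM as deposited. With FPKM as deposited the median of all genes shifted to 0.86 and 3 members rose and 5 fell, and scaled to the FPKM sum without the most abundant genes it shifted to 0.62 with the same counts of members. With either normal prostate left out limma called 0 genes in the whole table. At an unadjusted p under 0.05 there were then 1338 higher and 1096 lower genes without normal 1, and 1350 and 1004 without normal 2.

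**Figure D2:**
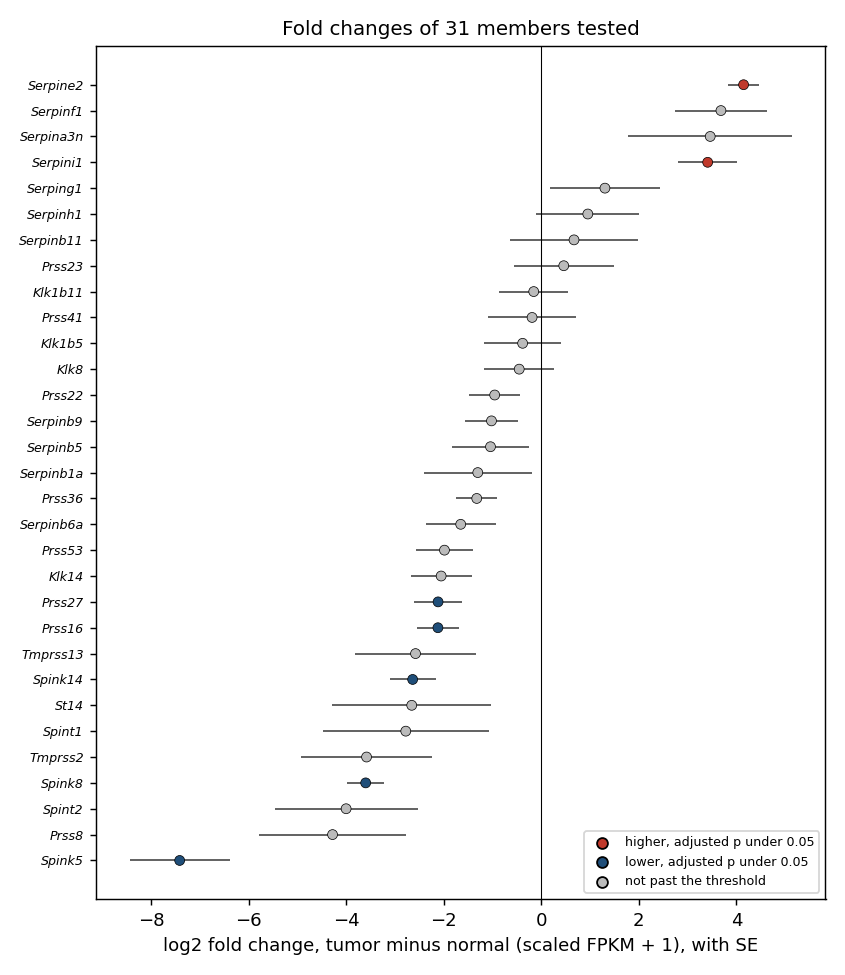
Log2 fold change, tumor minus normal, on the log2(scaled FPKM + 1) scale with its SE (horizontal axis) for 31 of the 32 members tested (vertical axis); colored points passed the adjusted p of 0.05. Serpine2 lies highest at 4.15 and Spink5 lowest at -7.41; the values of genes listed at 0 in a whole group depend on the added 1.

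Serpine2 rose most firmly. It encodes protease nexin-1, which inhibits thrombin, urokinase and trypsin at the cell surface, and lies on chromosome 1 at 79794321 to 79858665 of GRCm38 on the minus strand. Serpine2 lay at 186 and 130 scaled FPKM in the tumors, against 7.54 and 8.16 in the normal prostates. Both tumors stood far above both normal prostates, and the pairs within a group lay close together. Tumors exceeded normal prostates by 4.15 on the log2(scaled FPKM + 1) scale (SE 0.31, adjusted p = 0.0195), which is 17.7-fold. Implied fragments numbered 818 and 488 in the tumors, against 14.7 and 23.7 in the normal prostates. Without tumor 1, 11.6% of all genes tested were called higher and 20% lower, and without tumor 2, 19.7% and 30.8%. The call of Serpine2 held without tumor 1 (3.95, adjusted p = 1.43e-06) and without tumor 2 (4.40, adjusted p = 2.74e-07), where the single tumor left is taken to vary like the normal pair. It was lost without normal 1 (adjusted p = 0.101) and without normal 2 (adjusted p = 0.117).

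Serpini1, which encodes neuroserpin, an inhibitor of tissue plasminogen activator made mainly by neurons, had no listed level in either normal prostate (0 and 0). It lay at 5.36 and 16.8 scaled FPKM in the tumors, on 37.6 and 101 implied fragments (chromosome 3, 75557533 to 75642523, adjusted p = 0.0317). In the normal prostates 3 fragments would have been worth 0.958 and 0.648 scaled FPKM. Both tumors lay above that limit. It no longer passed with all genes kept (adjusted p = 0.0639), with 5 added to each value (adjusted p = 0.0507), and without normal 1 (0.184) or normal 2 (0.198). The summed neuroendocrine markers given above moved with Serpini1, and their part in its rise was not tested.

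The 2 serpins that rose are shown with the 250 bases before their RefSeq transcription starts (build GRCm38.p6), because these are the members that rose. The Serpine2 stretch is chr1:79858666-79858915 on the minus strand, and that of Serpini1 is chr3:75557243-75557492 on the plus strand. Capitals mark matches to 6 short motifs on either strand: GGGCGG, the GC box of SP factors; CAGGTG, the E-box of ZEB and SNAI factors; CCGGAA, the ETS core; AACNNGTT, the grainyhead core; TATAAA, the TATA box; and AGAACA, an androgen response half-site. Neighboring matches run together.
Serpine2: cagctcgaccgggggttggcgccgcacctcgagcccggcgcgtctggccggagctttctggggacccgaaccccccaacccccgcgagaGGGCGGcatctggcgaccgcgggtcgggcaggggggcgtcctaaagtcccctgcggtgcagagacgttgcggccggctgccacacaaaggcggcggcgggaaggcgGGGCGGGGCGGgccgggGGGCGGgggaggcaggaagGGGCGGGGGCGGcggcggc
Serpini1: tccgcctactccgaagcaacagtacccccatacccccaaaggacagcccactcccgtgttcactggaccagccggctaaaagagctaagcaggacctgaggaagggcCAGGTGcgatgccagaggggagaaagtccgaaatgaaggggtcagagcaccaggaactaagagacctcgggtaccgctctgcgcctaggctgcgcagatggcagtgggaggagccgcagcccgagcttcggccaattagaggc
The Serpine2 stretch had 78.8% G and C, 34 CpG pairs and 6 GC boxes, where 32.7% of 32851 RefSeq promoters of this length held at least 1. The Serpini1 stretch had 61.2% G and C, 13 CpG pairs, 0 GC boxes and 1 CAGGTG, which 17.2% of promoters held. Among the 149 promoters of members, 32.2% held CAGGTG and 16.8% held a GC box. The median over all promoters was 52.4% G and C and 6 CpG pairs. These matches describe the letters only.

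Serpinf1 was high in tumor 2 and did not pass. This gene, which encodes the antiangiogenic factor PEDF, a serpin that does not inhibit proteases, lay at 14.1 and 47.4 scaled FPKM in the tumors, against 0 and 3.41 in the normal prostates (adjusted p = 0.0575). It passed with FPKM as deposited (4.37, adjusted p = 0.0316). Serpinf1 was above both normal prostates in each tumor.

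Serping1, Serpinh1 and Serpina3n separated the tumors from each other. Serping1, the C1 inhibitor of the complement cascade, lay at 9.19 and 103 scaled FPKM in the tumors, against 10.4 and 14.2 in the normal prostates (adjusted p = 0.423). Serpinh1, the collagen chaperone HSP47, lay at 6.32 and 61.5 in the tumors, against 12.4 and 8.08 in the normal prostates (adjusted p = 0.533). Tumor 2 was above normal prostate for both and tumor 1 below it. Serpina3n, an acute-phase relative of human antichymotrypsin, lay at 0.878 and 63.9 in the tumors, against 0 in each normal prostate (adjusted p = 0.191). Serpina3n shares 6.9% of its transcript 50-base words with other genes. Without tumor 1, limma called Serpinf1, Serping1 and Serpinh1 higher, as it did 11.6% of all genes, and without tumor 2 it called Serpinf1 alone of these 3, with a negative fold change for Serping1 (-0.35) and Serpinh1 (-0.57).

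Markers of fibroblasts, macrophages and endothelium also summed higher in tumor 2 than in tumor 1. The same order held for the luminal, basal and smooth muscle markers given below, and the lists differed in how the tumors stood to normal prostate. The 5 fibroblast markers summed to 42.0 and 373 scaled FPKM in the tumors, against 123 and 98.0 in the normal prostates. Of them 3 were higher in both tumors, and Lum was listed at 0 in normal 1. Most of the normal sums was Dcn, at 104 and 84.2, against 5.45 and 111 in the tumors. No other fibroblast marker lay below both normal prostates in tumor 1. The 5 macrophage markers found summed to 135 and 369 in the tumors, against 14.3 and 9.86 in the normal prostates, with 3 higher in both tumors. Cd68 had 0 in each normal prostate, and Lyz2 had 0 in normal 1. The 5 endothelial markers summed to 1.51 and 25 in the tumors, against 7.21 and 3.81 in the normal prostates, with Tek at 0 in tumor 1 and in normal 2 and Kdr at 0 in normal 2. Their part in the serpin levels was not tested. In tissue RNA, fewer cells of a type and less RNA per cell cannot be told apart. The 5 liver markers summed to 5 and 33.7 in the tumors, against 0 and 2.70 in the normal prostates. Ttr, transthyretin, made up most of this, at 3.65 and 30.5 in the tumors, against 0 in each normal prostate, while Alb and Fgb were listed at 0 in all 4 libraries. Also listed at 0 in all 4 were Serpina5 and the plasma serpins Serpina6, Serpina7, Serpina10, Serpind1 and Serpinf2. Serpinc1, antithrombin, was above 0 in normal 2 only, on 1.0 implied fragment. The neutrophil markers summed to 4.91 and 20.8 in the tumors and were all listed at 0 in the normal prostates.

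**Figure D3:**
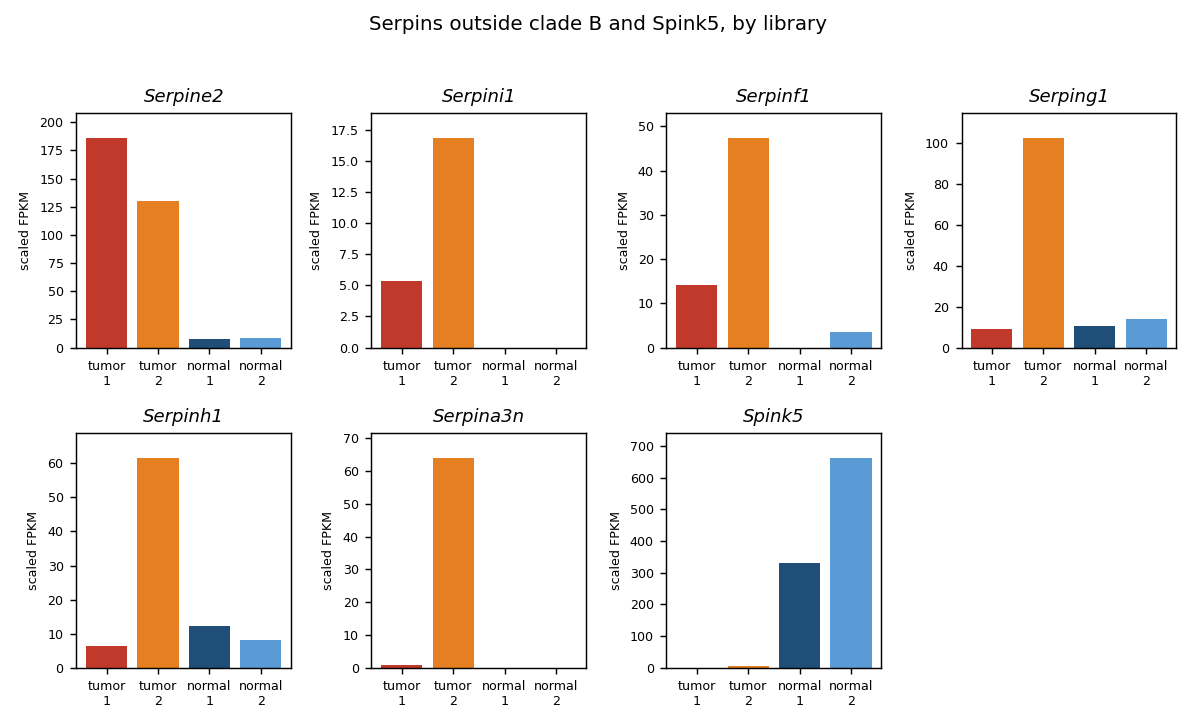
Scaled FPKM (vertical axis, from 0, its own scale per gene) of 6 serpins outside clade B and of Spink5 in tumor 1, tumor 2, normal 1 and normal 2 (horizontal axis). Serpine2 is high in both tumors at 186 and 130, Serpina3n, Serping1 and Serpinh1 are high in tumor 2 only, and Spink5 is high in both normal prostates at 332 and 662.

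Spink5 fell, the member with the lowest fold change of those tested. Of 11 Kazal inhibitors 6 were listed at 0 in all 4 libraries. The 3 tested, Spink5, Spink8 and Spink14, passed as lower, which is 100%, against 8.27% of all genes called lower. Spink8 and Spink14 rested on few fragments and entered the test through the normal prostates alone, so this count gives no support to a fall of the family. Spink5, which encodes the multidomain inhibitor LEKTI that restrains kallikreins in skin (chromosome 18, 43963241 to 44022487), was listed at 0 in tumor 1 and lay at 6.61 scaled FPKM in tumor 2, against 332 and 662 in the normal prostates. Behind them were 0 and 59.9 implied fragments in the tumors, against 1614 and 4770 in the normal prostates. The log2 fold change was -7.41 (SE 1.03, adjusted p = 0.0226). Relative to the normal mean tumor 1 lay at -8.88 and tumor 2 at -5.95, both further away than the normal prostates lay from each other. The call was lost with 0.1 added to each value (adjusted p = 0.0575), with all genes kept (0.0514), without normal 1 (0.116) and without normal 2 (0.139).

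Spink8 and Spink14, Kazal-type inhibitors whose targets are less well described, were listed at 0 in both tumors. Spink8 (chromosome 9, 109816627 to 109826627) lay at 11.7 and 10.6 scaled FPKM in the normal prostates, on 6.0 and 8.0 implied fragments (adjusted p = 0.0195), where 3 fragments would have been worth 2.60 and 3.05 scaled FPKM in the tumors. Spink14 lay at 7.67 and 3.46 in the normal prostates on 3.0 and 2.0 fragments (adjusted p = 0.0317), too few for a level to be set, and it did not pass with voom on implied fragments (adjusted p = 0.0598) or with all genes kept (0.0615). Both calls thus rest on 14.0 and 5.0 fragments in all. Spink11 was above 0 in normal 1 only, at 15.4 on 9.0 fragments. Spink2 was above 0 in tumor 1 only, at 9.43 on 6.1 fragments.

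The Kunitz inhibitors Spint1 and Spint2 and the membrane proteases St14, Prss8, Tmprss2 and Tmprss13 were well above 0 in normal prostate. They lay at 0 to 1.20% of the normal mean in tumor 1 and at 24.2 to 89.3% in tumor 2. Tmprss4 and Hpn, given below, did not share this pattern. Spint2, HAI-2, was the most abundant member in tumor 2 and in both normal prostates but not in tumor 1, where Serpine2, Serpinb6a and Serpinf1 were higher. It lay at 11.3 and 279 scaled FPKM in the tumors, against 927 and 947 in the normal prostates (SE of the log2 fold change 1.46, adjusted p = 0.114). Spint1, HAI-1, lay at 0.199 and 42.7 in the tumors, against 40.9 and 57.8 in the normal prostates (adjusted p = 0.276). Tumor 1 held 1.20% of the mean normal level of Spint2 and 0.404% of that of Spint1, while tumor 2 held 29.7% and 86.5%. Tumor 2 lay inside the normal range for Spint1 and below it for Spint2.

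St14, matriptase, lay at 0.217 and 37.9 scaled FPKM in the tumors, against 39.9 and 44.9 in the normal prostates (adjusted p = 0.278). St14 overlaps Gm16071 on the opposite strand. Tumor 1 held 0.511% of the normal mean on 2.0 implied fragments, and tumor 2 held 89.3% on 293. Spint1 lay at 1.13 times its target protease St14 in tumor 2, against 1.02 and 1.29 times in the normal prostates. Spint2 lay at 7.36 times St14 in tumor 2, against 23.2 and 21.1 times in the normal prostates. In tumor 1 the 2.0 fragments of St14 and the 1.0 of Spint1 are too few to set either ratio.

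Prss8, prostasin, is a membrane-anchored protease that matriptase can activate. It was listed at 0 in tumor 1 and lay at 22.9 scaled FPKM in tumor 2, against 82.0 and 107 in the normal prostates (adjusted p = 0.105). In tumor 1 3 fragments of Prss8 would have been worth 0.854 scaled FPKM. Prss8 overlaps Kat8 on the opposite strand, and their reads cannot be told apart without strand. Tmprss2, an androgen-regulated gene of human prostate, was listed at 0 in tumor 1 and lay at 15.3 in tumor 2, against 53.5 and 41.8 in the normal prostates (adjusted p = 0.117), with a limit of 0.431 for 3 fragments in tumor 1. Tmprss13 lay at 0.136 and 13.4 in the tumors, against 19.1 and 28.0 in the normal prostates (adjusted p = 0.187). Tmprss13 overlaps 1700003G13Rik on the opposite strand. For Prss8, Tmprss2 and Tmprss13 both tumors lay below both normal prostates.

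The 250 bases before the RefSeq starts of Spint1 (chr2:119237110-119237359, plus strand), Spint2 (chr7:29281978-29282227, minus strand) and Tmprss2 (chr16:97611196-97611445, minus strand) are shown, with capitals as above. These genes were lowest in tumor 1. In tumor 2 Spint1 lay inside the normal range, while Spint2 and Tmprss2 lay below it. The promoter set had no entry for St14, Prss8 and Tmprss13, which were also lowest in tumor 1.
Spint1: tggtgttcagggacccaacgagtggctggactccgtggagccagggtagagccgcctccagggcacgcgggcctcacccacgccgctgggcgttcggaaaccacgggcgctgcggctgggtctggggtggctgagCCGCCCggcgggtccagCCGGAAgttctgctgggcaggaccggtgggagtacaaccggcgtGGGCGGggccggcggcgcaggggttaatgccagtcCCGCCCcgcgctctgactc
Spint2: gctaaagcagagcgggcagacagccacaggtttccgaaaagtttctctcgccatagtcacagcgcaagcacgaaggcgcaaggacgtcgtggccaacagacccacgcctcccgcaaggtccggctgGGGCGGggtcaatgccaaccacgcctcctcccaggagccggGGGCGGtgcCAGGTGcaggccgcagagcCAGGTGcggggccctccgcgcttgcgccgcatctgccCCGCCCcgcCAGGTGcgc
Tmprss2: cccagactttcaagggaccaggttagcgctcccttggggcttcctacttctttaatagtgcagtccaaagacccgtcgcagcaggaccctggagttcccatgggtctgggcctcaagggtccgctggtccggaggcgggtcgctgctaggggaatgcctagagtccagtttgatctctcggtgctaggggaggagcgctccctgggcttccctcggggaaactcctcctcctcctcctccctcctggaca
The Spint1 and Spint2 stretches held 3 GC boxes each, and that of Tmprss2 held 0. Spint2 held 3 CAGGTG motifs, while Spint1 and Tmprss2 held 0. Spint1 held 1 CCGGAA, which 12% of promoters held. The grainyhead core, the TATA box and the androgen half-site, found in 3.64%, 12.4% and 16.1% of promoters, had 0 matches in these 3 stretches and in the 2 above. No motif of the 6 was common to Spint1, Spint2 and Tmprss2, and a missing match says only that these letters are not in this window.

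Tmprss4, a surface protease reported high in several human carcinomas, had another pattern. It was listed at 0 in tumor 1 and lay at 41.7 scaled FPKM in tumor 2 on 172 implied fragments, against 0.902 and 0.611 in the normal prostates on 2.0 fragments each. Reaching an FPKM of 1 in tumor 2 only, it was not tested. Tmprss4 overlaps Gm17099 and BC049352 on the opposite strand. Hpn, hepsin, a protease often raised in human prostate cancer, was listed at 0 in tumor 1 and lay at 0.946 in tumor 2, against 1.21 and 0.818 in the normal prostates, on at most 1.6 fragments in any library. The list of 10 genes of the epithelial membrane cascade (Hpn, St14, Tmprss2, Tmprss4, Tmprss13, Prss8, Prss22, Prss27, Spint1 and Spint2) had 8 members tested, of which 1 fell, 0 rose and 7 did not pass, which is 12.5% called against 18.1% of all genes, at a median log2 fold change of -2.72, against 0.07 over all genes. Without tumor 2, limma called Spint1, Spint2, St14, Tmprss2, Tmprss13 and Prss8 lower, with log2 fold changes of -4.26 to -6.39, in a fit that called 30.8% of all genes and 16 of 24 members lower. Without tumor 1 it called Spint2 (-1.67), Tmprss2 (-1.49) and Prss8 (-1.91) lower, as it did 20% of all genes, while Spint1 had an adjusted p of 0.816, St14 of 0.852 and Tmprss13 of 0.148.

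The luminal epithelial markers, like the membrane proteases above, were lowest in tumor 1. The 5 genes summed to 20.9 and 946 scaled FPKM in the tumors, against 1304 and 1603 in the normal prostates, with 4 of 5 lower in both tumors. Cdh1 and Spdef were listed at 0 in tumor 1. Cdh1, E-cadherin, was at 49.4% of the normal mean in tumor 2, Krt18 at 0.0709% in tumor 1 and 52.4% in tumor 2, and Epcam, itself cut by matriptase, at 4.06% and 40.4%. Krt8 differed, at 0.14% of the normal mean in tumor 1 and 238% in tumor 2, where its 438 made up much of the luminal sum. The 5 basal markers summed to 2.52 and 55.6 in the tumors, against 74.9 and 71.1 in the normal prostates, with 4 lower in both tumors and listed at 0 in tumor 1. The exception was Krt17, higher in both tumors, at 2.52 and 31 against 2.13 and 0 in the normal prostates. Smooth muscle markers summed to 3.86 and 104 in the tumors, against 579 and 539 in the normal prostates, and all 5 were lower in both tumors, with Myh11 and Cnn1 at 0 in tumor 1. Their part in the levels of the membrane proteases was not tested.

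**Figure D4:**
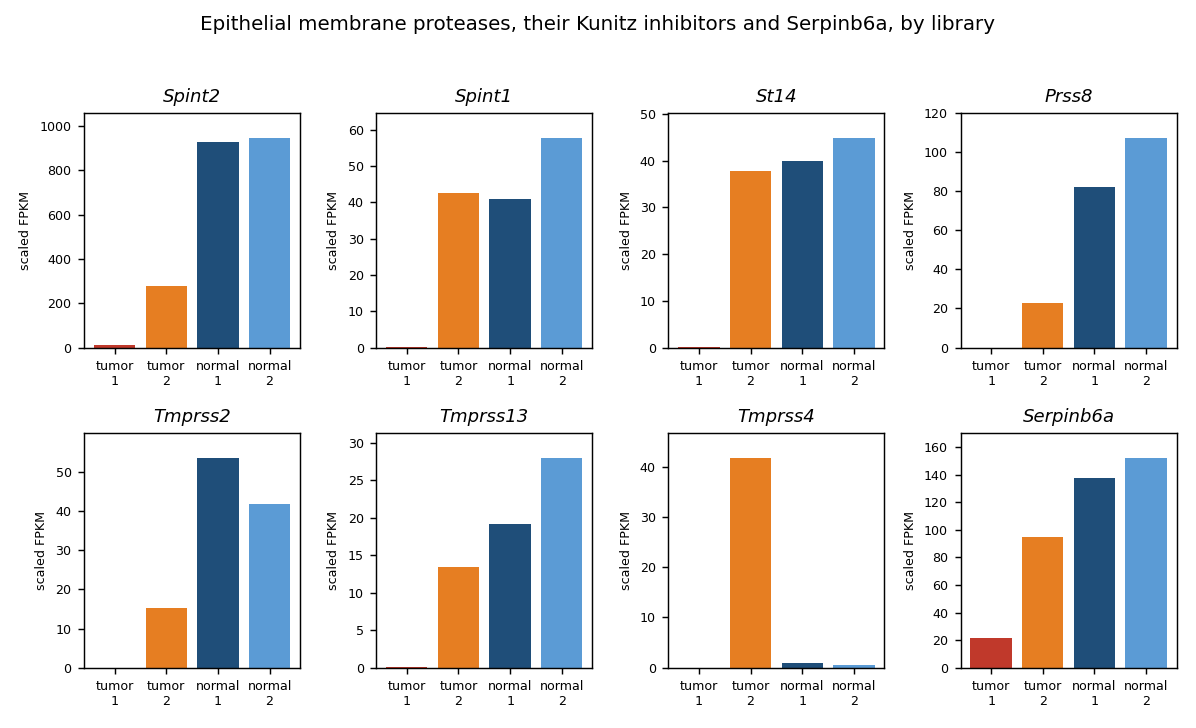
Scaled FPKM (vertical axis, from 0, its own scale per gene) of Spint2, Spint1, the membrane proteases St14, Prss8, Tmprss2, Tmprss13 and Tmprss4, and Serpinb6a in tumor 1, tumor 2, normal 1 and normal 2 (horizontal axis). St14 lies at 0.217 in tumor 1 and at 37.9 in tumor 2, next to 39.9 and 44.9 in the normal prostates, while Tmprss4 is high in tumor 2 only at 41.7.

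Of the 8 Prss proteases tested, Prss8 among them, 2 passed as lower and 6 did not pass, which is 25% called against 18.1% of all genes. Both were listed at 0 in the tumors and entered the test through the normal prostates alone. Prss16, the thymus-specific serine protease, was listed at 0 in both tumors and lay at 4.78 and 2.26 scaled FPKM in the normal prostates on 9.6 and 7.0 implied fragments (chromosome 13, 22002176 to 22009741, adjusted p = 0.0385). Prss27, a membrane-anchored protease also called marapsin, was listed at 0 in both tumors and lay at 1.97 and 5.32 in the normal prostates on 2.0 and 8.0 fragments (chromosome 17, 24038243 to 24045949, adjusted p = 0.0473). Both calls rest on few fragments, 16.6 and 10 in all. Both were lost without tumor 1 (adjusted p = 0.0536 for Prss16 and 0.0601 for Prss27), with all genes kept (0.0668 and 0.0804), and with 5 added to each value (0.0556 and 0.0738).

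The polyserase Prss36 lay at 1.88 and 1.02 scaled FPKM in the tumors, against 5.21 and 4.85 in the normal prostates (adjusted p = 0.0864). Prss53, another polyserase, lay at 6.03 and 1.88, against 20.8 and 13.5 in the normal prostates (adjusted p = 0.0725), but shares 74.4% of its 50-base words with Gm21974 and its own level is uncertain. Both tumors lay below both normal prostates for either gene. Prss23, a secreted protease of wide expression, lay at 2.46 and 26.1 in the tumors, against 6.47 and 5.63 in the normal prostates (adjusted p = 0.759), with tumor 1 below and tumor 2 above the normal pair. Prss23 overlaps Prss23os on the opposite strand. The 5 members of the chromosome 6 cluster from Prss37 to Prss2 (40514824 to 41525079) were listed at 0 in all 4 libraries. Of the pancreatic acinar markers Cpa1, Ctrb1, Pnlip and Amy2a5 were at 0 throughout, while Cela1 lay at 0.457 and 2.15 in the tumors, against 26.8 and 17.4 in the normal prostates.

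The kallikreins were low in mouse prostate. Of 28 members, 17 were listed at 0 in all 4 libraries, 4 were tested, and 0 passed by limma, with 1 of the 4 at an unadjusted p under 0.05. That one, Klk14, a trypsin-like activator of other kallikreins, was listed at 0 in tumor 1 and lay at 1.91 scaled FPKM in tumor 2, against 6.15 and 6.01 in the normal prostates (adjusted p = 0.0793). Klk14 passed under quantile normalization and without tumor 2, and it overlaps 2310002F09Rik on the opposite strand. Klk8, neuropsin, Klk1b5 and Klk1b11 each had at most 3.0 implied fragments in any library. Klk4, an enzyme of human prostate and of tooth enamel, was listed at 0 in all 4 libraries, as was Klkb1, plasma prekallikrein.

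The kallikrein cluster on chromosome 7 (43690418 to 44229617) holds 27 of the 28 members, and 11 of them were above 0 in any library. Its summed level was 0 and 15.5 scaled FPKM in the tumors, against 11.5 and 11.8 in the normal prostates. Klk1, true tissue kallikrein, was listed at 0 in tumor 1 and in both normal prostates and lay at 9.04 in tumor 2 on 12.1 fragments. Klk1 overlaps Gm10109 on the opposite strand. The 15 Klk1 and Klk1b genes share much sequence: a median of 17.1% of the 50-base words in their transcripts, from 1.87 to 33.9%, occur in another gene's transcripts. Values such as 0.142 for Klk1b27 and 0.139 for Klk1b21 in tumor 2 rest on 0.0 implied fragments, as shares of ambiguous reads do, and are no level of these genes.

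Clade B serpins, which stay inside the cell, had 27 members, 19 of them listed at 0 in all 4 libraries, and 5 tested, none past the threshold by limma and 0 at an unadjusted p under 0.05. Serpinb6a, whose human relative inhibits cathepsin G, was the most abundant, at 21.3 and 95.0 scaled FPKM in the tumors, against 137 and 152 in the normal prostates (adjusted p = 0.157). Both tumors were below both normal prostates, at 14.7% and 65.7% of their mean. Serpinb6a overlaps Nqo2 and Ripk1 on the opposite strand. Serpinb1a, an inhibitor of leukocyte elastase, was listed at 0 in tumor 1 and lay at 8.21 in tumor 2, against 7.60 and 5.51 in the normal prostates. Serpinb5, maspin, which does not inhibit proteases, was listed at 0 in tumor 1 and lay at 3.29 in tumor 2, against 4.33 and 2.40 in the normal prostates (adjusted p = 0.373). Serpinb11 was listed at 0 in tumor 1 and lay at 14.3 in tumor 2, against 1.24 and 1.68 in the normal prostates. Tumor 2 lay within or above the normal range for these 3 genes.

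Serpinb9, an inhibitor of granzyme B, lay at 0.259 and 1.67 scaled FPKM in the tumors, against 2.04 and 3.55 in the normal prostates (adjusted p = 0.218), and its 6 close relatives Serpinb9b to Serpinb9g were listed at 0 throughout. Gzmb itself was below the filter, at 0 and 1.60 in the tumors, against 0.767 and 0.519 in the normal prostates. The 5 T and NK cell markers summed to 0 and 0.516 in the tumors, against 1.51 and 0.768 in the normal prostates, with Cd2 above 0 in tumor 2, Cd3e in normal 1 and Cd3g in normal 2, and Nkg7 and Prf1 at 0 throughout. Of the 12 clade B members in the chromosome 1 cluster (106861180 to 107608978) 4 were above 0 in any library, as were 4 of the 15 in the chromosome 13 cluster (32842092 to 34002794). In the clade A cluster on chromosome 12 (103616675 to 104414329), which holds 24 members, 10 were above 0 in any library and its summed level was 1.62 and 72.6 in the tumors, against 1.01 and 1.22 in the normal prostates. Most of the tumor 2 value was Serpina3n. Serpina1a, one of the mouse antitrypsin genes, was at 0.0456 in tumor 2 on 0.0 fragments and listed at 0 elsewhere.

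The tumors differed from each other more than the normal prostates did, and mostly in 1 direction. Tumor 2 was above tumor 1 in 25 of the 32 members tested and below it in 3, with 4 tied at 0. This direction was not counted over all genes tested. The tumors were over 4-fold apart in 15 of the 32 (46.9%), against 8.86% of all genes tested, and the normal prostates in 2. The median absolute log2 difference was 1.76 between the tumors and 0.42 between the normal prostates for the members, against 0.64 and 0.29 for all genes tested. The median member lay at -1.56 on the log2 scale in tumor 1 and at -0.17 in tumor 2 relative to the normal mean. For all genes tested these medians were 0.10 and 0.08. With 1 library on each side these differences between tumors have no replicate check.

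**Figure D5:**
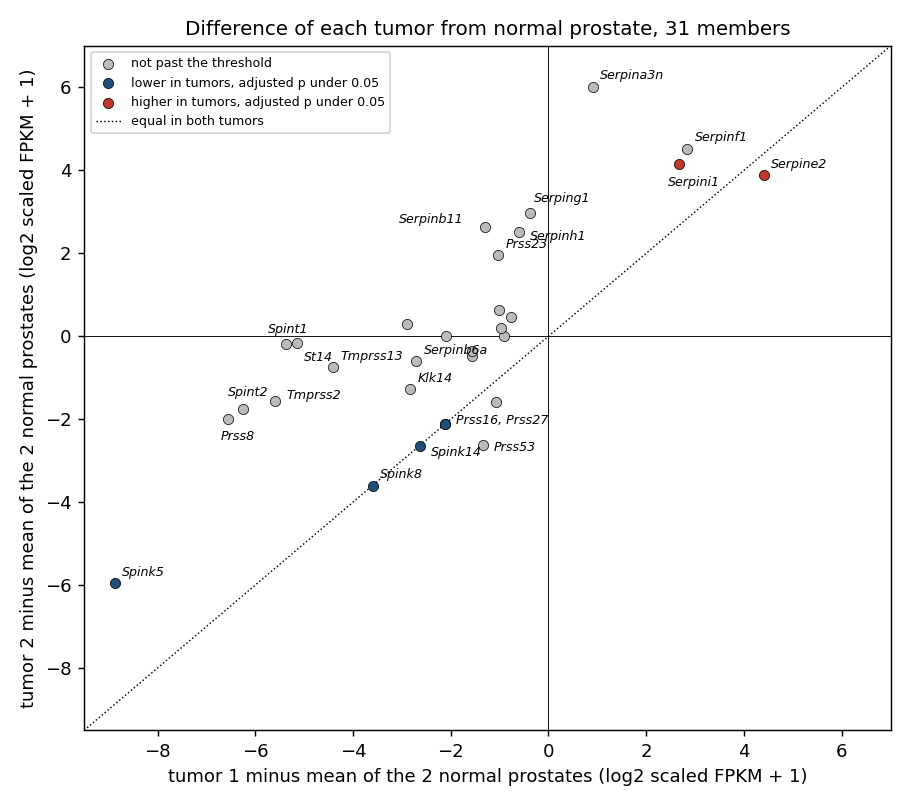
Log2 difference from the mean of the 2 normal prostates in tumor 1 (horizontal axis) and in tumor 2 (vertical axis) for 31 of the 32 members tested, on the log2(scaled FPKM + 1) scale, with the dotted line where both tumors are equal. Serpine2 and Serpini1 are raised in both, the 5 members that fell lie low in both, and Spint1 and St14 lie near -5 in tumor 1 and near 0 in tumor 2 (-5.37 and -5.15, -0.18 and -0.16).

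Genes that the members act on or share pathways with were given from a list of 32, of which 11 were tested, 1 rose, 0 fell and 10 did not pass, 9.09% called against the 18.1% of all genes tested. F2r, the thrombin receptor PAR1, rose, at 5.21 and 4.24 scaled FPKM in the tumors, against 0.602 and 0.204 in the normal prostates (log2 fold change 2.04, SE 0.40, adjusted p = 0.0357). F2r passed the filter through the tumors alone. Its implied fragments numbered 38.9 and 26.9 in the tumors, against 2 and 1 in the normal prostates. F2rl1, the receptor PAR2 that trypsin-like proteases activate, lay at 0.324 and 2.86 in the tumors, against 5.47 and 3.95 in the normal prostates (adjusted p = 0.188). Lrp1, which clears serpin and protease complexes from the cell surface, lay at 11 and 4.92 in the tumors, against 1.90 and 1.84 in the normal prostates (adjusted p = 0.0920). The urokinase gene Plau lay at 1.16 and 3.75 in the tumors, against 0 and 0.0491 in the normal prostates (adjusted p = 0.0758). Plau also passed the filter through the tumors alone, on 6 and 16 implied fragments there and 0 in each normal prostate. Scnn1b, a subunit of the epithelial sodium channel that prostasin activates, lay at 0.331 and 2.73 in the tumors, against 8.59 and 8.85 in the normal prostates (adjusted p = 0.0722). Plat, the target of neuroserpin, was below the filter, at 0.176 and 5.58 in the tumors, against 1.19 and 0 in the normal prostates. F2 (prothrombin) was listed at 0 in all 4 libraries and Plg (plasminogen) was above 0 in tumor 2 only, at 0.190.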

How the data were processed

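Total RNA of 2 tumors and 2 normal prostates had been sequenced, and for each library the authors deposited a table of genes from Cufflinks with FPKM and confidence bounds. Per the submitters' processing notes TopHat2 2.0.8 and Trim Galore, then Cuffdiff 2.1.1 with Cufflinks 2.1.1, were used on GRCm38 (mm10). Settings, annotation, strandedness and scaling across libraries were not given in the sources used here. Every table had 24883 rows, of which 27 with names turned into dates were left out, and rows of 1 name were summed. Later steps used limma 3.58.1 (R 4.3.3) and Python 3.11.15. Median-of-ratios factors over 11469 genes above 0 in all libraries were 1.34 and 1.50 for the tumors and 0.793 and 0.689 for the normal prostates. Genes with FPKM of at least 1 in at least 2 libraries were tested on log2(scaled FPKM + 1) by limma with an intensity trend (residual degrees of freedom 2, prior 2.85), two-sided, as tumor minus normal, and p-values were adjusted by Benjamini-Hochberg across 13162 genes. A fold change on this scale understates the change of low genes. An implied fragment number was taken from each interval's width as 2 Poisson standard deviations. Of rows with 1 transcription start group and 0.9 to 20 such fragments, 71.1 to 72.5% were whole to within 0.1. The 3-fragment limits cover counting error only and carry the FPKM per fragment over from the library with most fragments. Positions are those of the tables, counted from 1, and all 161 overlap their GENCODE M21 gene. Shared 50-base words were counted in GENCODE M21 transcripts. Promoters are from RefSeq GRCm38.p6, which matched 126 of 161 members. The test was also run on simulated data, and no outcome of that run is given here. How the test performs on libraries with such unequal spread and many values at 0 is therefore not shown. The members, the lists and the motifs were chosen with earlier results of these data known. Named with values are members past the threshold, members averaging at least 20 scaled FPKM in either group, a fixed list of 20, and others named for their pattern after their values were seen. Alternatives covered the pseudocount, filter, scaling, trend, voom, row choice and each library left out. The values of 1 tested member and of 1 marker gene are not reported here, though both entered the fits and the member entered the counts.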

Additional observations from a re-analysis of the deposited data

How the results depend on the processing

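Serpine2 and Spink8 kept their call in all 10 alternatives that used every library, with an adjusted p of at most 0.0484 for both. Spink8 was listed at 0 in both tumors and entered the test through the normal prostates alone, on 14.0 fragments. Its tumor values are tied at 0 and gave the main fit no spread, so its kept call is no measure of firmness. With either normal prostate left out, Spink8 fell below the filter. No called member changed sign in any alternative. With a pseudocount of 5, 1 member was called higher and 3 lower; without the filter on low values, 1 and 1, with a member median of -0.08 over 70 tested; with a filter at FPKM 5, 3 and 2. Over all genes, 245 higher and 249 lower were called without the filter, 3681 and 427 with FPKM as deposited, and 2537 and 554 after scaling by summed FPKM that left out genes over 1%; the cause was not tested, but the filter changes how many genes are tested. Leaving out each library in turn gave 0 to 2170 genes higher and 0 to 3405 lower, 0 to 6 members higher and 0 to 16 lower, and a member median of -2.24 to -0.30. The sign turned for Serpinb5 without tumor 1 (0.067, against -1.96 without tumor 2). It also turned without tumor 2 for Prss23 (-0.99), Serping1 (-0.35, against 3.04 without tumor 1) and Serpinh1 (-0.57, against 2.56). Serpini1 fell below the filter without either tumor and had no value there. Prss27 was also lost under quantile normalization and without the trend. The low depth limits all members under about 10 fragments. No paired analysis was made, since the tumors came from transgenic males and the normal prostates from wild-type males. The labels carry no replicate numbers, and the numbers used here only name the libraries in the order of their records.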

Other observations

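Of the members above 0 in a single library, 18 were so in tumor 2, 3 in tumor 1, 2 in normal 1 and 5 in normal 2. The 18 summed to 18.2 scaled FPKM, and 2 of them, Klk1 and Tmprss11e, rested on at least 3 implied fragments. Serpina9, the centerin of germinal center B cells, and Prss56 were among those on 2.0 fragments.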
